A study of Mus musculus with 3 samples.

Results

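The genes described here are 43 mouse genes of the spliceosome and its regulators, taken by symbol from the 32285 genes of the count matrices. They are all genes whose symbols begin with Srsf and a digit, Hnrnp, Luc7l, Sf3a or Sf3b. By family they are 11 SR protein genes, 20 hnRNP genes, 3 Luc7-like genes, 3 SF3a genes and 6 SF3b genes. The symbols alone decided membership, but the families were singled out with earlier results of these libraries known, among them their levels in barcodes rich in the nuclear RNA Malat1, so every value below is given as a description.

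The cells were CD45int CD11b+ cells sorted from mouse brain on day 4 after sham treatment or induction of neuromyelitis optica spectrum disorder (NMOSD), an antibody-mediated inflammatory disease of the optic nerve, spinal cord and brain. Each of the 3 libraries came from 1 pool of 4 mice, and all 3 groups were Apoe knockout mice (APOE-/-), so none carried a working copy of the gene for apolipoprotein E. The first group had a sham procedure and received PBS, the second had NMOSD induction and a control peptide, and the third had NMOSD induction and the peptide APOE130-149. The control-peptide library thus differs from the sham library in induction and in what was given, and the effects of these cannot be told apart. With 1 library per group there is no replicate check and no test. Each ratio carries an exact 95% conditional interval and each level an exact Poisson interval, and both cover counting error only. Whether an interval excludes 1 depends on the UMIs of the gene as well as on its ratio. The shares of intervals below set the members beside all genes compared, not beside genes of the same level.

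Introns are removed from nuclear RNA by the spliceosome. The U1 particle, with which Luc7-like proteins associate, recognises the donor splice site, and the SF3a and SF3b complexes form part of the U2 particle that engages the branch point. SR proteins mostly bind exons and promote their use, whereas many hnRNP proteins oppose exon use or package nuclear RNA, and both classes set which isoforms a cell makes. Many SR and hnRNP genes limit their own output by splicing their transcripts into forms that retain introns or include exons that lead to decay.

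The 3 libraries held 4674 (sham), 5306 (control peptide) and 2175 (APOE130-149) barcodes with 32712199, 61469677 and 32060750 UMIs. A minimum of 500 detected genes and a limit of 10% on mitochondrial UMIs left 4231, 5011 and 2025. Of these, 3413, 3494 and 1217 were gated as microglia-like, with a median of 7204, 7227 and 8570 UMIs. Their P2ry12 level, a defining microglial marker, was 2660, 2554 and 2862 CPM, the UMIs of a gene per 1000000 UMIs of the class. Gated border-associated macrophages numbered 21, 18 and 22, neutrophils 170, 224 and 92 and monocytes 37, 57 and 32. A further 545, 1157 and 639 barcodes (12.9%, 23.1% and 31.6%) entered no class, with medians of 7815, 15253 and 18835 UMIs. They held 5367838, 24963768 and 16387405 of the 32359749, 60801202 and 31742519 UMIs left by the filter. The microglia compared below thus leave out unequal parts of the libraries. The choroid plexus transcript Ttr stood at 0.906 CPM in sham microglia and at 88.3 and 68.0 CPM in the control-peptide and APOE130-149 microglia. The sham and control-peptide libraries shared 9 barcodes, the control-peptide and APOE130-149 libraries 3, and the sham and APOE130-149 libraries 0. UMIs at Apoe in microglia came to 73.5, 82.9 and 88.7 CPM, and with no wild-type library beside them they check nothing about the knockout.

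In microglia the 43 genes together gave 7465 CPM in the sham library, 7101 CPM in the control-peptide library and 6891 CPM in the APOE130-149 library. The sham library was thus the highest and the APOE130-149 library the lowest, by a few per cent. The control-peptide total was 0.951-fold the sham total (95% interval 0.945 to 0.957). That difference was gone under scaling by the trimmed mean of M values (1.0-fold) or the median of ratios (1.01-fold). The APOE130-149 total was 0.970-fold the control-peptide total (0.963 to 0.978), and 0.948- and 0.947-fold under these scalings in the same order. Of the 43 genes, 42 passed the minimum of 10 CPM and 20 UMIs in microglia. The remaining gene, Srsf12, which codes for an SR protein known mainly from brain and testis, had 0 UMIs in every class of every library. The limit for a count of 0, taken as 3 UMIs (a one-sided limit, lower than the upper end of the two-sided intervals), is 0.118 CPM for microglia of the sham library, 0.0987 CPM with control peptide and 0.254 CPM with APOE130-149.

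**Figure D1:**
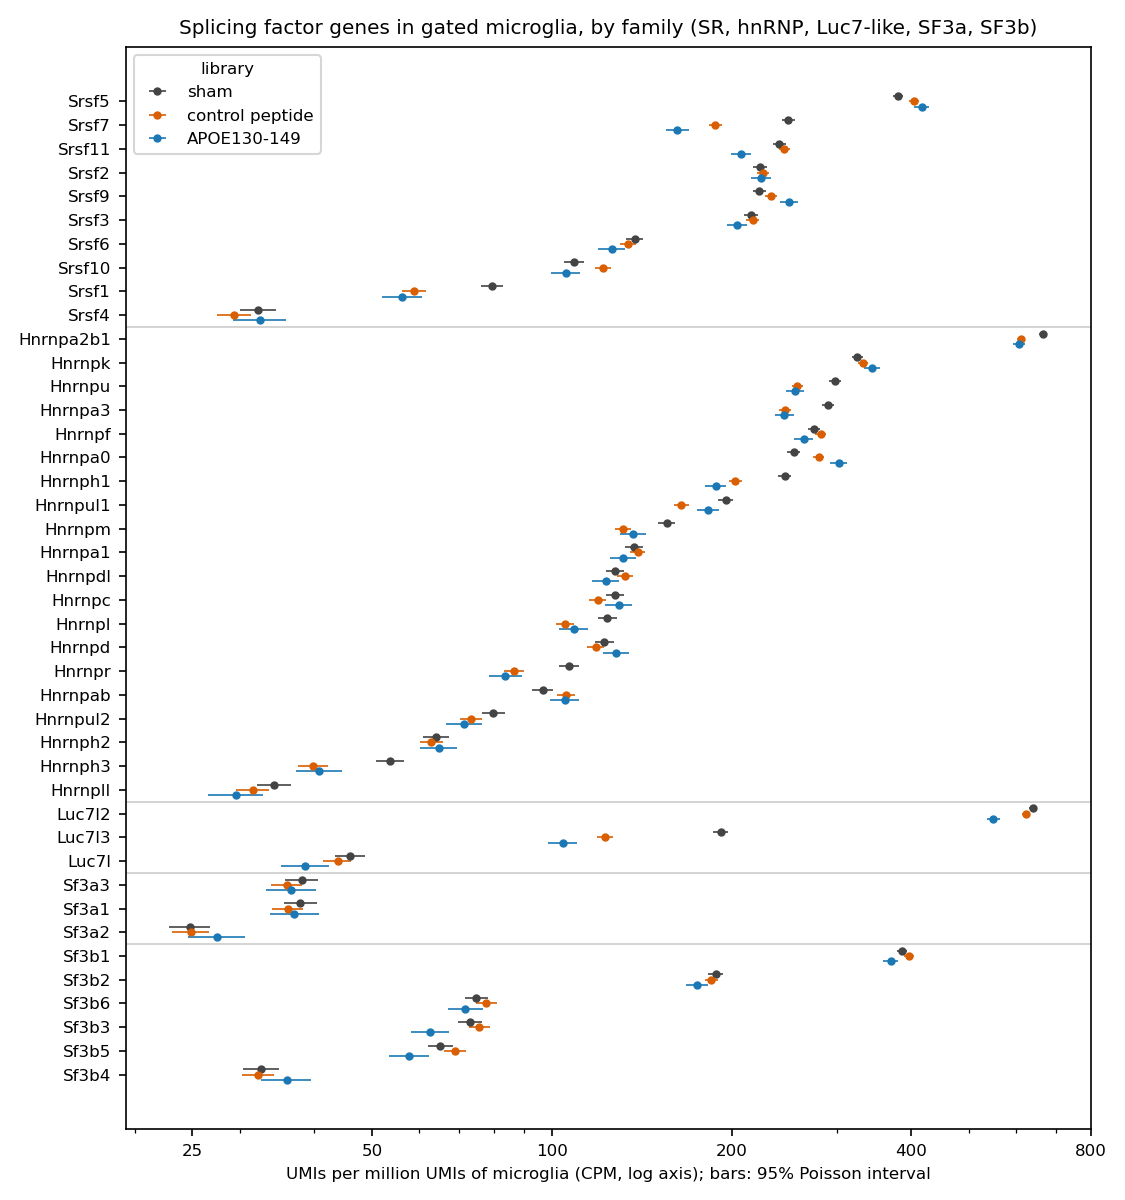
Level of each of the 42 splicing factor genes over the minimum in gated microglia, in CPM on a log axis, with the genes on the vertical axis grouped by family and 1 point per library with its 95% Poisson interval. Luc7l3, Srsf7, Srsf1 and Hnrnph3 are the genes whose sham point stands furthest to the right of both other points, with Luc7l3 at 191.7 CPM against 122.7 and 104.4 CPM.

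Microglia after NMOSD induction with control peptide differed from sham microglia in a few of these genes and by modest amounts. At 1.5-fold or more, 0 of 42 were higher and 1 was lower, where 1.41% of the 8482 genes tested were higher and 0.884% lower. At 1.2-fold or more, 0 were higher and 6 lower, against 4.44% and 17.1% of all genes. The 6 genes are 14.3% of the members, a share close to that of all genes. The interval lay above 1 for 6 members and below 1 for 15, against 16.7% and 40.5% of all genes. The members' median log2 ratio was -0.04, beside -0.08 for all genes, and under the 2 other scalings it was 0.03 and 0.04 beside -0.01 and 0.01.

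Because the promoter is one thing such genes can share, the 250 bases before the RefSeq start of 5 of them are printed here (build GRCm38.p6): the 3 lowest members of that comparison whose window lies almost wholly outside the annotated gene (Luc7l3, Srsf7, Srsf1), and 2 of the 3 highest (Hnrnpa0, Hnrnpab). Each is written 5′ to 3′ on the gene's own strand, and capitals mark matches to CCGGAAG (the core bound by ETS factors) or GGGCGG (the GC box bound by SP1 and KLF factors) on either strand.
Luc7l3 (chr11:94321964-94322213, minus strand): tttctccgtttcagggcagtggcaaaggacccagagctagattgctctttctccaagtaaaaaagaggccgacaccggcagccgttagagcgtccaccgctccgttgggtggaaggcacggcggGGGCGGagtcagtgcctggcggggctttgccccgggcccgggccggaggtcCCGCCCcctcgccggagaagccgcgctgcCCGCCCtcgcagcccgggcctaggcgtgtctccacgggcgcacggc
Srsf7 (chr17:80207306-80207555, minus strand): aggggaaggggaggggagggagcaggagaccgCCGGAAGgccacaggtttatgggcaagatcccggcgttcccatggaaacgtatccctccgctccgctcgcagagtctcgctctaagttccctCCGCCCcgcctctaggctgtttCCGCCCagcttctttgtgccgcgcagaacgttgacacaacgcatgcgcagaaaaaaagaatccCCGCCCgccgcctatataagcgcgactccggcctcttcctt
Srsf1 (chr11:88047123-88047372, plus strand): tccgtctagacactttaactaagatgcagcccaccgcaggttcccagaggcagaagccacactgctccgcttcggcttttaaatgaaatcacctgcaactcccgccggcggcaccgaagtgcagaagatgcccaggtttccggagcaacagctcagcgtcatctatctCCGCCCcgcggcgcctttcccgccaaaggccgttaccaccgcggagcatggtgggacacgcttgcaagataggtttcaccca
Hnrnpa0 (chr13:58128557-58128806, minus strand): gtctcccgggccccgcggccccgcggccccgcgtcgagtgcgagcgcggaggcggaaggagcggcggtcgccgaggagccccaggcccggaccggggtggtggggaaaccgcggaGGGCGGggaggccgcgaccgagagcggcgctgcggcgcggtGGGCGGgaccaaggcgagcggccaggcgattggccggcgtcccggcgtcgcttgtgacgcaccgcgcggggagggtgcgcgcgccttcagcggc
Hnrnpab (chr11:51606882-51607131, minus strand): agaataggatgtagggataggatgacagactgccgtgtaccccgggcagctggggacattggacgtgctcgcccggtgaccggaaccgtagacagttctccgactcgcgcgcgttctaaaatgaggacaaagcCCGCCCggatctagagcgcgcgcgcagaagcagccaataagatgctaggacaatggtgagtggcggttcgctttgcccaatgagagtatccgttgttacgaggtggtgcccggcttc

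The GC box occurs in all 5 windows, in the 3 lower genes and in the 2 higher ones alike, and CCGGAAG occurs in that of Srsf7. RefSeq had a promoter entry for 38 of the 43 members. GGGCGG was found in 73.7% of the 38 windows and in 32.7% of 27025 mouse promoter windows of the same length. CCGGAAG was found in 31.6% of the members' windows and 7.14% of all windows. Other motifs searched on both strands were TGACGTCA (bound by CREB factors; 0% of members and 1.56% of all) and TATAAA (the TATA box; 10.5% and 12.9%). Motifs of NRF1 and YY1 were searched as well and are not reported here. The members' windows had a median GC content of 61.6%, against 52% for all. These are matches of letters, and the data hold no measure of factor binding there.

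The Luc7-like genes held the widest difference. Luc7l3, whose product associates with U1 and helps choose weak donor sites, lies at chr11:94287890-94321988 on the minus strand (GRCm38, GENCODE vM21). Its level was 191.7 CPM in sham microglia, 122.7 CPM with control peptide and 104.4 CPM with APOE130-149. The sham level stood above both NMOSD levels, whose intervals did not reach it. The control-peptide level was 1.56-fold lower than the sham level (95% interval 1.5 to 1.63), from 3731 against 4866 UMIs. The same 2 scalings and a mean with every cell weighted alike brought the ratio to 0.673, 0.680 and 0.711, in each case a smaller difference than 1.5-fold. The paralog Luc7l2 stood at 640.8, 621.6 and 549.3 CPM, so sham and control peptide differed by 0.970-fold (0.95 to 0.991), and this small difference turned its direction under those 3 settings. Luc7l, the other paralog, was at 46.0, 43.8 and 38.7 CPM, and its interval for control peptide against sham crossed 1.

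Among the SR genes, 2 of 10 were at least 1.2-fold lower with control peptide and 0 higher, against 17.1% and 4.44% of all genes. The family's median log2 ratio was 0.01, or 0.09 and 0.10 under the trimmed mean of M values and the median of ratios. Srsf7 (chr17:80200080-80207307), which codes for a splicing factor that also takes part in export of mRNA and choice of its end, was at 248.9 CPM in sham, 188.0 CPM in control-peptide and 162.3 CPM in APOE130-149 microglia. The order was the same as for Luc7l3, with sham highest, and control peptide stood 1.32-fold below sham (1.28 to 1.37). Srsf1 (chr11:88047373-88053755), the founding SR protein gene, was at 79.4, 58.9 and 56.2 CPM, 1.35-fold lower with control peptide than in sham (1.27 to 1.44). Srsf10, a splicing regulator active when dephosphorylated, had the highest ratio of all members, at 108.9, 121.8 and 105.4 CPM, or 1.12-fold (1.06 to 1.18) for control peptide against sham. Its APOE130-149 level fell within the sham interval. Srsf5 was at 380.5, 404.4 and 416.3 CPM, lowest in sham, with a ratio of 1.06 (1.03 to 1.09) for control peptide against sham. Srsf2 and Srsf3, which code for core SR proteins, were at 223.1 against 225.9 CPM and 215.4 against 217.0 CPM in sham and control-peptide microglia, with intervals that included 1.

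Of the 20 hnRNP genes, 3 were at least 1.2-fold lower with control peptide and 0 higher, against 17.1% and 4.44% of all genes. The interval lay below 1 for 11 and above 1 for 2, where 40.5% and 16.7% of all genes did. The lower count at 1.2-fold was thus near the share of genes in general. The family's median log2 ratio was -0.12, and -0.05 and -0.03 under the trimmed mean of M values and the median of ratios. Hnrnph3 (chr10:63014664-63024217), a member of the hnRNP H group that binds runs of G, was at 53.5, 39.8 and 40.8 CPM, and its relative Hnrnph1 at 245.4, 202.8 and 188.1 CPM. Control peptide stood 1.34-fold (1.24 to 1.45) and 1.21-fold (1.17 to 1.25) below sham for these 2 genes, whereas the other H-group gene Hnrnph2, at 64.0, 62.9 and 64.7 CPM, had an interval that included 1. Hnrnpr was at 106.8, 86.3 and 83.6 CPM, 1.24-fold lower (1.17 to 1.31) with control peptide. Hnrnpul1 (195.4, 164.8 and 182.8 CPM) and Hnrnpm (155.7, 131.7 and 136.9 CPM) were also highest in sham, by less than 1.2-fold. At the other end, Hnrnpa0, whose product binds AU-rich elements of mRNAs, was at 254.1, 279.8 and 302.6 CPM, lowest in sham and highest with APOE130-149. Its ratio was 1.10 (1.07 to 1.14) for control peptide against sham. Hnrnpab was at 96.5, 105.5 and 105.1 CPM, with a ratio of 1.09 (1.04 to 1.15). The most studied member pair, Hnrnpa1 (137.3, 139.2 and 131.6 CPM) and Hnrnpa2b1 (664.8, 610.6 and 606.0 CPM), differed from sham by 1.01-fold (0.969 to 1.06) and 0.918-fold (0.899 to 0.938).

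The genes of the U2 particle's SF3a and SF3b complexes differed little in CPM. None of the 9 reached 1.2-fold in either direction for control peptide against sham, where 4.44% of all genes were higher and 17.1% lower. The medians on the log2 scale were -0.07 for SF3a and 0.05 for SF3b. Under the trimmed mean of M values and the median of ratios they came to 0.00 and 0.02 for SF3a and to 0.12 and 0.13 for SF3b. Sf3b1, which codes for the subunit that clamps the branch point, was at 385.6, 396.7 and 369.6 CPM. Sf3b5 had the highest ratio of the complex, at 65.1, 68.9 and 57.7 CPM, and Sf3b2 the lowest, at 188.3, 185.1 and 175.1 CPM. Sf3a2 was at 24.8, 24.8 and 27.5 CPM and Sf3a3 at 38.1, 36.0 and 36.6 CPM, with intervals that included 1 for both.

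**Figure D2:**
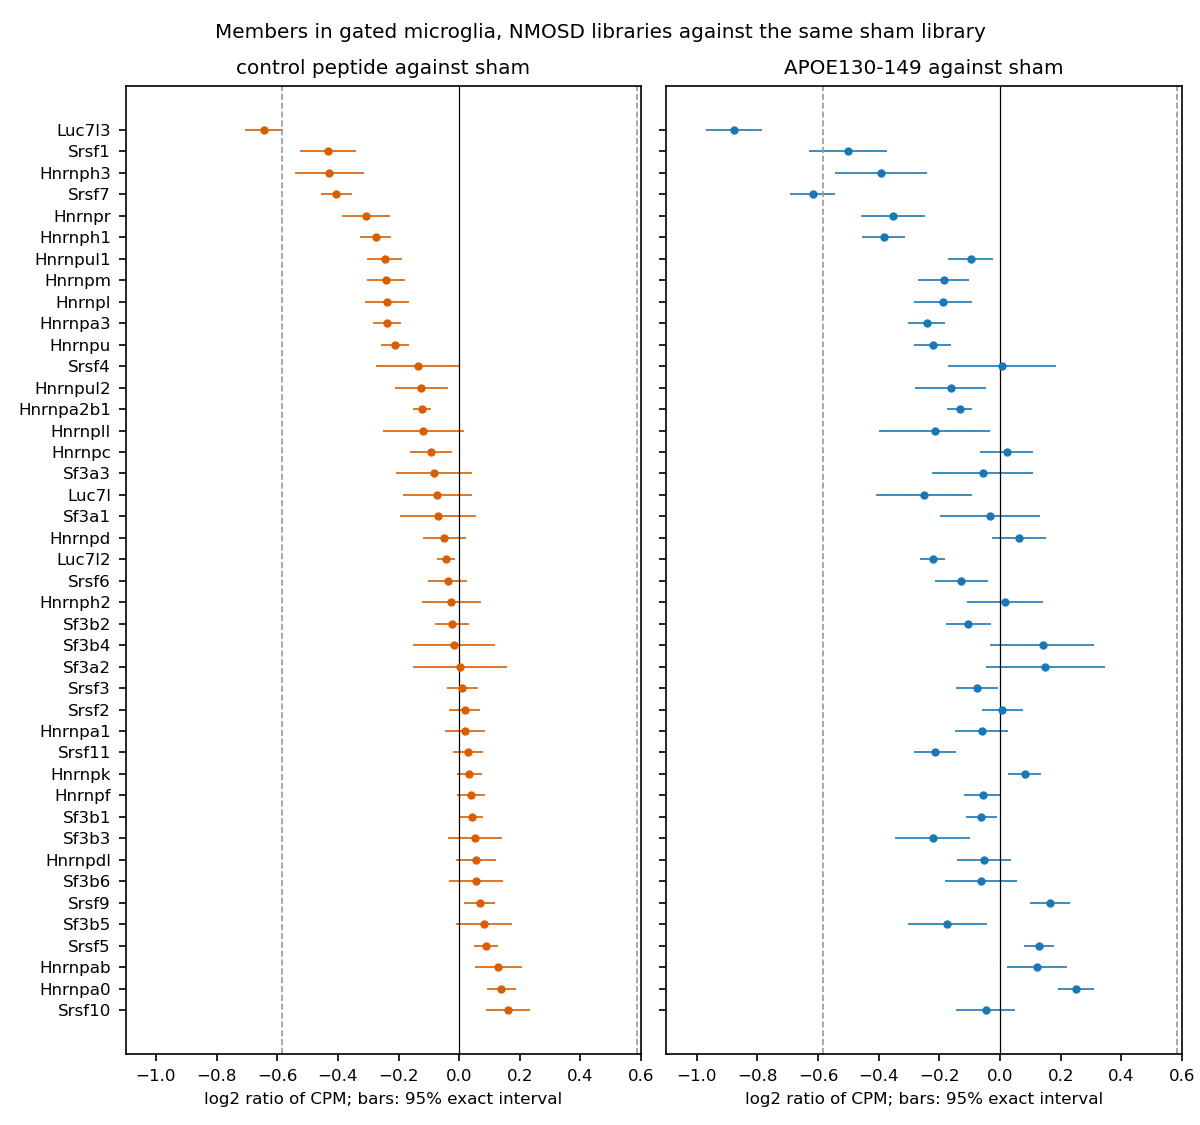
Ratio of microglial levels for each of the 42 genes over the minimum, on a log2 axis with 95% intervals. Genes are ordered by their ratio of control peptide to sham, with a panel each for control peptide against sham and APOE130-149 against sham. Luc7l3 stands furthest below sham in both panels, at 1.56-fold and 1.84-fold lower.

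Summed exonic length, taken over all annotated exons of a gene, varied together with these ratios. Over the 42 members, Spearman's rho between the log2 ratio of control peptide to sham and the summed exonic length was -0.32, and over 8478 genes it was -0.41. For APOE130-149 against control peptide rho was -0.36 over the members and 0.04 over 8393 genes, and for APOE130-149 against sham -0.54 over the members and -0.37 over 8496 genes. The points share the same libraries, and genes are not independent replicates. Malat1, which stays in the nucleus, stood at 24006 CPM in sham microglia, 22712 CPM with control peptide and 21865 CPM with APOE130-149, in the same order as the members' summed level. Neat1, another RNA that stays in the nucleus, went the opposite way, at 54.8, 99.9 and 135.8 CPM. The part of length and of nuclear RNA in the members' differences was not tested.

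APOE130-149 against control peptide put fewer members past 1.5-fold or 1.2-fold than control peptide against sham did. At 1.5-fold, 0 members were higher and 0 lower, against 0.524% and 0.179% of 8397 genes. At 1.2-fold 0 were higher and 1 lower, against 6.19% and 3.56% of all genes. That gene was Sf3b3, which codes for a scaffold subunit of SF3b, at 62.5 CPM against 75.6 CPM, or 1.21-fold lower (1.11 to 1.32). The interval lay above 1 for 5 members and below 1 for 16, or 38.1% below, where 16.5% of all genes lay above and 13.4% below. By family, the intervals lay below 1 for all 3 Luc7-like genes, 5 of 6 SF3b genes, 5 of 10 SR genes, 3 of 20 hnRNP genes and 0 of 3 SF3a genes. Luc7l3 was 0.851-fold (0.797 to 0.907), Luc7l2 0.884-fold (0.859 to 0.909) and Luc7l 0.884-fold (0.793 to 0.983) the control-peptide level. The 5 genes with intervals above 1 were Hnrnpul1 (1.11-fold), Hnrnpa0, Hnrnpc and Hnrnpd (each 1.08-fold) and Srsf9 (1.07-fold). The members' median log2 ratio was -0.02, beside 0.01 for all genes. Under both the trimmed mean of M values and the median of ratios it was -0.06, beside -0.02 for all genes. For control peptide against sham these scalings gave members' medians of 0.03 and 0.04.

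Against sham, which is also the reference of the first comparison, APOE130-149 gave 0 members higher and 2 lower by 1.5-fold, where 1.59% and 1.13% of 8500 genes were. The 2 were Luc7l3, 1.84-fold lower (1.72 to 1.96), and Srsf7, 1.53-fold lower (1.46 to 1.62). At 1.2-fold 0 were higher and 6 lower, against 5.39% and 14.6% of all genes. Intervals lay above 1 for 5 members and below 1 for 23, where 12.8% and 28.2% of all genes did, and the 23 are 54.8% of the members. The members' median log2 ratio was -0.09, beside -0.06 for all genes.

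A list of 81 further splicing genes gave a setting for these values in the same microglia. For control peptide against sham, 0 were at least 1.5-fold higher and 3 (3.70%) lower, where 1.41% and 0.884% of all genes were. At 1.2-fold 2 (2.47%) were higher and 16 (19.8%) lower, against 4.44% and 17.1% of all genes, and the median log2 ratio was -0.10 beside -0.08. The 3 lowest were Rsrp1, an arginine- and serine-rich protein gene (771 CPM in sham and 437 CPM with control peptide, 1.77-fold lower), Tardbp, which codes for the RNA-binding protein TDP-43 (140 and 85.5 CPM, 1.64-fold lower), and Fubp1, named after its values were seen (203 and 135 CPM, 1.5-fold lower). The SR protein kinase gene Clk1 was at 318 and 230 CPM, 1.38-fold lower. The 2 higher genes were Puf60, which codes for a U2AF-like factor (58.4 and 85.5 CPM, 1.46-fold), and Snrpc, a U1 subunit gene (55.8 and 75.6 CPM, 1.35-fold). For APOE130-149 against control peptide, 0 of the 81 reached 1.5-fold, and 3 (3.70%) were higher and 4 (4.94%) lower by 1.2-fold, against 6.19% and 3.56% of all genes.

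Among cell types, monocytes carried more of several hnRNP and SF3b transcripts and less Luc7l2 than the microglia of the same library. In all 3 libraries 10 of 42 members (23.8%) were at least 1.5-fold higher in monocytes, against 16.1% of the 8149 genes compared, and 3 (7.14%) were at least 1.5-fold lower, against 26% of genes. Intervals lay above 1 in all 3 for 12 members (28.6%; 17.2% of genes) and below 1 for 7 (16.7%; 21.6% of genes). The members' median log2 ratios were -0.08, 0.20 and 0.08 in the sham, control-peptide and APOE130-149 libraries, beside -0.26, -0.20 and -0.26 for all genes, and 0.10, 0.35 and 0.28 under a median-of-ratios scaling. The summed level of the members in monocytes was 0.991-fold (0.958 to 1.03), 1.23-fold (1.2 to 1.26) and 1.11-fold (1.08 to 1.15) that in microglia.

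The 10 higher genes were 8 hnRNP genes (Hnrnpa1, Hnrnpa3, Hnrnpab, Hnrnpc, Hnrnpd, Hnrnpf, Hnrnpll, Hnrnpul2) and the SF3b genes Sf3b5 and Sf3b6. Hnrnpa3, a nuclear RNA-binding relative of Hnrnpa1, was at 626, 764 and 649 CPM in monocytes of the sham, control-peptide and APOE130-149 libraries and at 290, 246 and 245 CPM in their microglia. The 2 cell types did not overlap, and the ratios were 2.16, 3.11 and 2.65. Sf3b6, whose product contacts the branch-point adenosine, was at 198, 212 and 194 CPM in monocytes against 74.8, 77.7 and 71.7 CPM in microglia, with ratios of 2.65, 2.73 and 2.70. Those 3 ratios lay closer together than those of Hnrnpa3. Sf3b5, a small structural subunit gene, was 2.36-, 2.47- and 3.10-fold higher in monocytes.

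Luc7l2 was the member furthest below microglia, at 209, 230 and 171 CPM in monocytes against 641, 622 and 549 CPM in microglia. These are 3.07-, 2.70- and 3.21-fold lower levels from 98, 204 and 91 UMIs, while Luc7l3 did not keep 1 direction (0.733, 0.946 and 1.37). Hnrnph1 was 2.40-, 1.84- and 2.22-fold lower in monocytes. Hnrnph3 was 2.29-, 2.08- and 1.97-fold lower, from 11, 17 and 11 UMIs. The 2 hnRNP H genes that were lower in NMOSD microglia than in sham were thus also lower in monocytes than in microglia.

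The monocyte gate held some microglial transcripts, with P2ry12 at 51.1, 149 and 182 CPM and all 8 microglial markers detected. Among the 18, 20 and 8 monocytes with fewer than 3 microglial markers, P2ry12 was at 31.5, 18.7 and 29.9 CPM. In these, 7 of 42 members (16.7%) were at least 1.5-fold higher in all 3 libraries, against 15.4% of genes, and the same 3 were lower, against 18% of genes. Hnrnpa3 was then 2.45-, 2.53- and 1.99-fold higher, Sf3b6 2.65-, 2.74- and 4.03-fold higher and Luc7l2 2.74-, 3.55- and 4.24-fold lower. The direction of these 3 genes thus held in the stricter cells, whereas the members' share at 1.5-fold higher came near that of all genes.

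**Figure D3:**
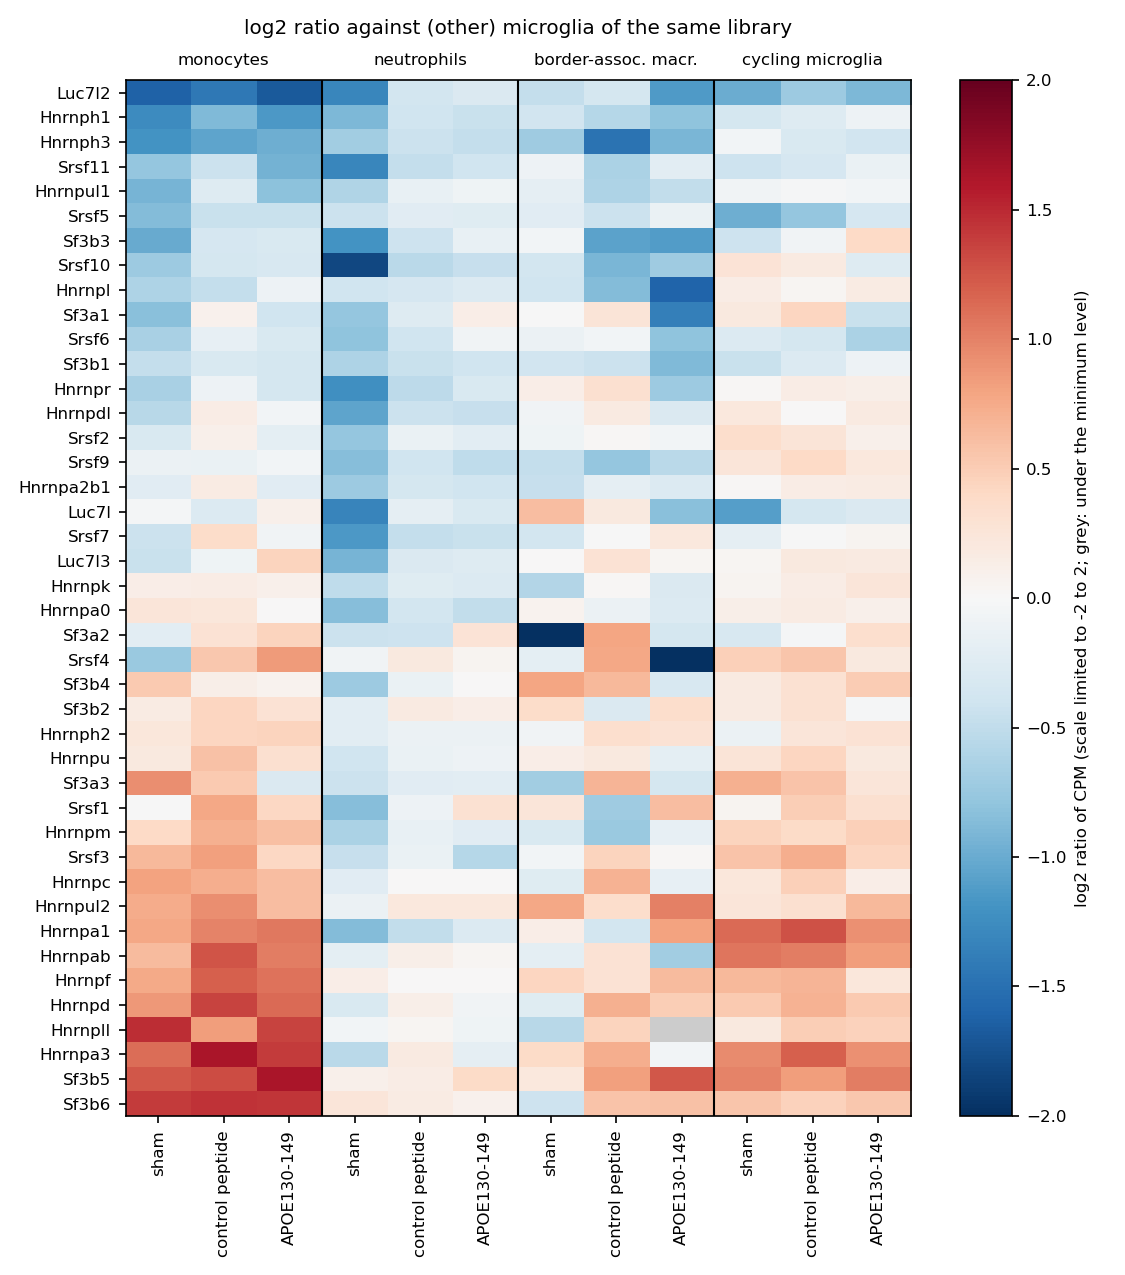
Log2 ratio of each member's level in monocytes, neutrophils and border-associated macrophages to that in microglia of the same library, and in cycling microglia to that in other microglia. Genes are in rows ordered by their mean log2 ratio over the monocyte columns. Each class and library has a column, with colour for the ratio and grey for genes under the minimum level. Luc7l2 is below the microglia it is set against in every column, and Sf3b6 is above in every monocyte and neutrophil column.

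Neutrophils carried lower levels of these transcripts in CPM than microglia, by an amount close to that of genes in general, and a median-of-ratios scaling, which lifts every log2 ratio by 0.66, 0.26 and 0.20, put the members' medians at 0.03, 0.03 and -0.01. The summed members were 0.640-fold (0.620 to 0.661), 0.854-fold (0.842 to 0.865) and 0.848-fold (0.834 to 0.863) the microglial level in the sham, control-peptide and APOE130-149 libraries. The members' median log2 ratios of -0.63, -0.23 and -0.21 stood beside -0.74, -0.29 and -0.23 for all genes, so relative to all genes the members were 0.12, 0.07 and 0.02 higher. Intervals lay below 1 in all 3 libraries for 20 of 42 members (47.6%), against 29.5% of 8397 genes, and none of the 42 was 1.5-fold lower or higher in all 3, against 8.07% and 7.38% of genes. The gated neutrophils had a median of 1546 UMIs in the sham library and of 7936.5 and 12850.5 UMIs in the other libraries, and their P2ry12 level was 905, 1375 and 1704 CPM. The part of depth and of microglial RNA in the members' neutrophil levels was not tested.

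In the 24, 42 and 22 neutrophils with fewer than 3 microglial markers, P2ry12 was at 17.8, 37.5 and 47.9 CPM and the summed members at 4275, 3741 and 4151 CPM, below every microglial total. There 19 of 41 members (46.3%) were at least 1.5-fold lower in all 3 libraries, against 41.4% of 6221 genes. Srsf10 was at 17.8, 34.6 and 16 CPM, 6.12-, 3.52- and 6.60-fold below microglia, though from 4, 12 and 4 UMIs. Luc7l2 was at 160, 173 and 184 CPM (4.00-, 3.59- and 2.99-fold lower). Srsf9 was 3.13-, 3.85- and 3.13-fold lower and Srsf7 2.66-, 3.26- and 3.39-fold lower. Hnrnpf, which codes for an H-group protein, stayed near the microglial level at 320, 300.2 and 236 CPM (ratios 1.17, 1.06 and 0.892), as did Sf3b5 (0.888, 1.01 and 0.969).

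Border-associated macrophages were close to microglia in the summed level of these genes, at 6798, 6860 and 6031 CPM, or 0.911-, 0.966- and 0.875-fold. Over the alternative settings, 6 to 17, 14 to 21 and 14 to 26 members were 1.5-fold apart within the libraries. These settings include the cells with fewer than 3 microglial markers. The share of all genes per library is not given beside these counts, so they describe no trait of the members. The P2ry12 level of these macrophages was 450, 287 and 482 CPM, and 2, 2 and 4 of them had fewer than 3 microglial markers. The part of microglial RNA in their levels was not tested. Of the 41 members compared in all 3 libraries, none was 1.5-fold higher in all 3, against 7.45% of 7340 genes, and 1 was lower, against 7.66%. That gene was Hnrnph3, with 7, 2 and 3 UMIs. Luc7l2 was the single member whose interval lay below 1 in all 3 libraries, against 4.03% of genes (0 lay above, against 5.31%), at 459.5, 488.0 and 251.6 CPM or 0.717-, 0.785- and 0.458-fold the microglial level. With 18 to 22 cells a library, smaller differences were not detectable at this depth.

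Microglia with cycling markers differed from other microglia in a few members. In the 66, 101 and 41 cycling microglia, 4 of 42 members (9.52%) were at least 1.5-fold higher than in microglia without such markers in all 3 libraries, against 8.46% of 8353 genes, and 1 was lower, against 9.07%. The share higher was thus near that of genes in general. Intervals lay above 1 in all 3 libraries for 8 members (19.0%; 11.6% of genes) and below 1 for 3 (7.14%; 12.5% of genes). Hnrnpa1 was at 284, 301 and 235 CPM in cycling and 129, 124 and 124 CPM in other microglia, or 2.20-, 2.42- and 1.89-fold higher. Hnrnpa3 (1.92-, 2.29- and 1.88-fold), Hnrnpab (2.10-, 2.03- and 1.79-fold) and Sf3b5 (1.99-, 1.79- and 2.02-fold) were the others, and all 4 are among the 10 genes higher in monocytes. Luc7l2 was again the lower gene, at 333, 387 and 310 CPM in cycling and 660, 643 and 578 CPM in other microglia. Those levels were 1.98-, 1.66- and 1.86-fold lower. Srsf5 was also lower, by 1.98-, 1.72- and 1.26-fold, with intervals below 1 in all 3. The members' medians of 0.18, 0.25 and 0.19 on the log2 scale stood beside -0.16, -0.14 and -0.12 for all genes. Cycling cells had more UMIs, with medians of 12497.5, 14013 and 11599 against 7032, 6980 and 8400, and the part of depth was not tested.

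Barcodes under 2000 UMIs, taken before any other filter, numbered 1465 (31.3%), 604 (11.4%) and 287 (13.2%) in the sham, control-peptide and APOE130-149 libraries. They were ranked within each library by the Malat1 share of their UMIs and split into 3 groups of equal size. In the poorest group Malat1 made up 0.123%, 0.164% and 0.359% of UMIs, and in the richest 1.95%, 6.63% and 6.02%. The groups are ranges of a continuous share: 16.2%, 6.79% and 11.5% of the barcodes lay within 20% of the lower limit. That limit was 0.222%, 0.429% and 0.760% Malat1, and the upper limit was 0.458%, 2.77% and 2.06%. The rich group of the sham library thus began below the lower limit of the APOE130-149 library.

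The summed members were higher in the rich than in the poor group of every library. In the poor, middle and rich groups they came to 5404, 5405 and 7016 CPM in the sham library, 5309, 7035 and 8484 CPM with control peptide and 5249, 6421 and 10244 CPM with APOE130-149. The poor groups were nearly alike, and the rich groups were spread, under Malat1 limits that differed between libraries. With fixed limits, chosen after seeing the data, barcodes at 2% Malat1 or more held 9932, 8447 and 10225 CPM. Those at 0.5% or less held 5420, 5326 and 4737 CPM, so the sham library was not lowest at the rich end. For the groups of equal size, the ratio of rich to poor was 1.30 (1.24 to 1.36), 1.60 (1.49 to 1.72) and 1.95 (1.75 to 2.18). The members' medians were 0.28, 0.63 and 1.03 on the log2 scale, beside 0.10, 0.39 and 0.39 for all genes tested.

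Of the 27 members that could be compared in all 3 libraries, 8 (29.6%) were at least 1.5-fold higher in the rich group of every library, against 27.7% of 1681 genes, so the members' share was near that of genes in general, and 0 were 1.5-fold lower, against 7.44%. Intervals lay above 1 in all 3 for 9 (33.3%; 24.3% of genes) and below 1 for 1 (3.70%; 15.1% of genes). The other 15 members over the minimum in microglia did not pass the minimum of UMIs here in every library.

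**Figure D4:**
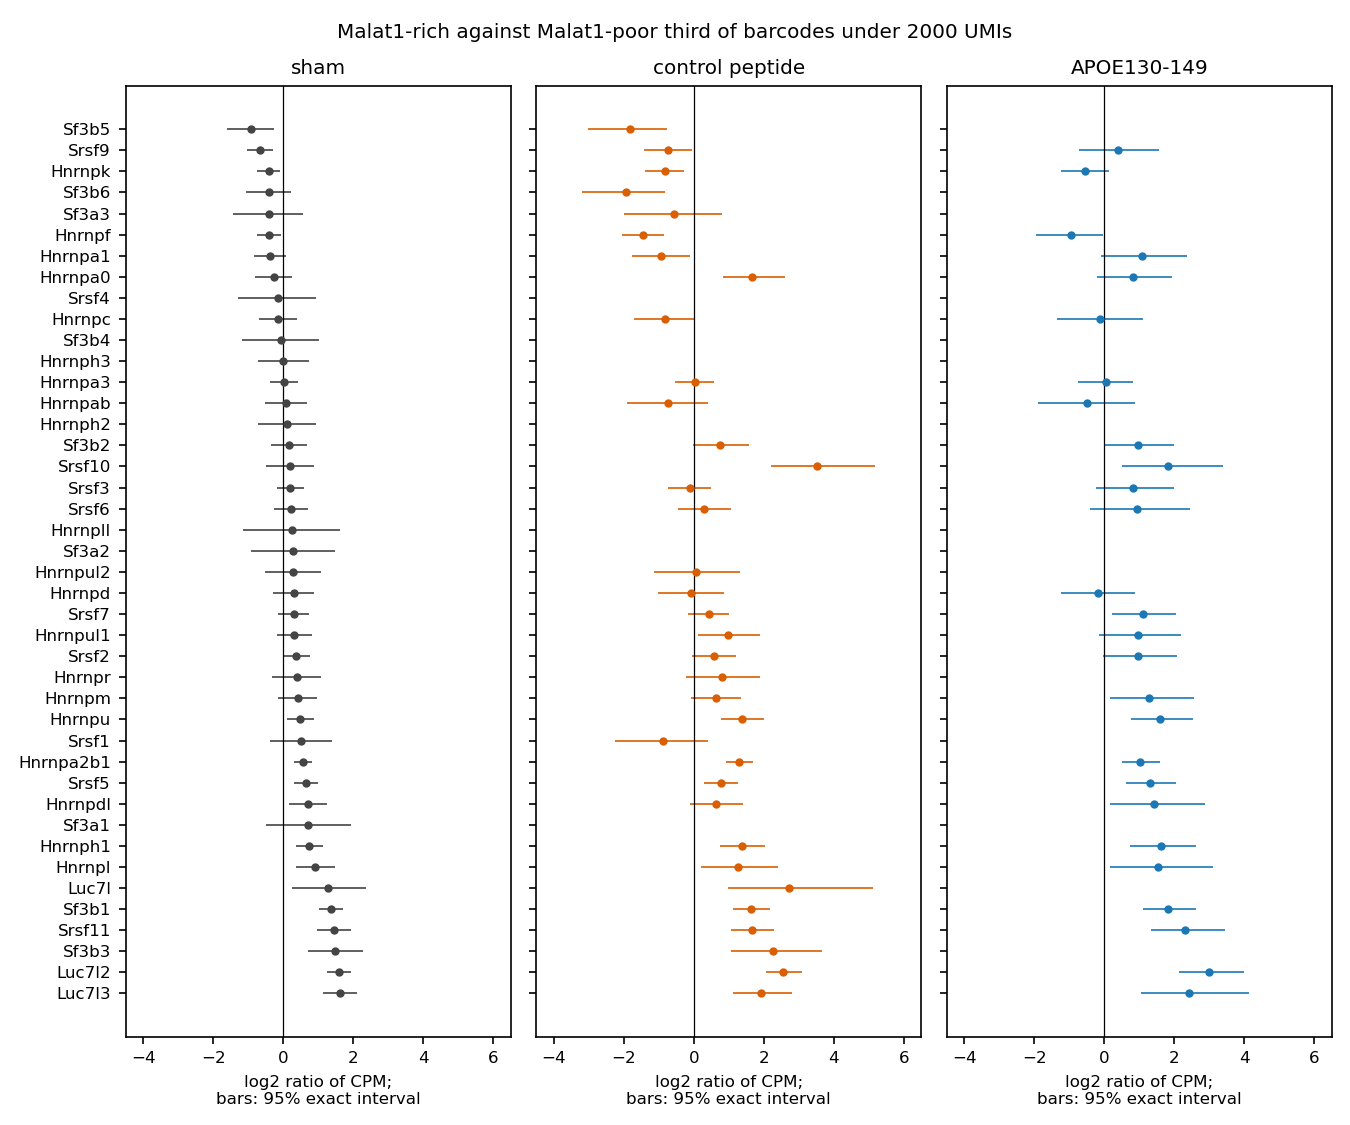
Log2 ratio of each member's level in the Malat1-rich group to that in the Malat1-poor group of barcodes under 2000 UMIs, with 95% exact intervals. Genes are in rows ordered by their ratio in the sham library, with a panel per library. The summed members, which are not drawn, came to 7016, 8484 and 10244 CPM in the rich group and 5404, 5309 and 5249 CPM in the poor group.

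Luc7l2 and Luc7l3 had the largest ratios among the genes past 1.5-fold in all 3 libraries. Luc7l2 went from 177 CPM in the poor to 537 CPM in the rich group in the sham library, from 178 to 1046 CPM with control peptide and from 135 to 1063 CPM with APOE130-149, or 3.03-, 5.86- and 7.90-fold. Luc7l3 went from 88.7 to 272 CPM, 75.1 to 284 CPM and 56.1 to 299 CPM, or 3.06-, 3.78- and 5.33-fold. The rich groups thus held similar Luc7l3 levels in all 3 libraries. Luc7l2 in the rich group was lower in the sham library, where that group began at a lower Malat1 share. Srsf11, an SR-related gene, was 2.71-, 3.16- and 4.93-fold higher and Sf3b1 2.57-, 3.09- and 3.55-fold higher in the rich group. Hnrnph1 (1.68-, 2.61- and 3.07-fold), Hnrnpl (1.89-, 2.38- and 2.87-fold), Hnrnpdl (1.63-, 1.55- and 2.69-fold) and Srsf5 (1.58-, 1.71- and 2.49-fold) completed the 8. Hnrnpf went the other way, from 343 to 258 CPM, 404 to 148 CPM and 292 to 149 CPM. Sf3b5, at 62.4, 42.3 and 17.6 CPM in the rich against 118, 150 and 191 CPM in the poor group, was also lower in each library, from 28, 10 and 2 UMIs in the rich group.

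The genes with the largest ratios have a large summed exonic length. Spearman's rho between the log2 ratio and summed exonic length over the members was 0.64 in the sham library (42 genes), 0.59 with control peptide (35 genes) and 0.53 with APOE130-149 (27 genes), and over all genes tested it was 0.54, 0.70 and 0.71. Summed exonic length was 12084 bases for Luc7l2 and 7278 for Luc7l3, against 3047 for Hnrnpf and 3841 for Sf3b5. Not all higher genes were long: Srsf5 and Hnrnpdl, at least 1.5-fold higher in the rich group of every library, had 3988 and 4818 bases. The relation was thus one that genes in general showed as well, and the part of length in the members' ratios was not tested.

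**Figure D5:**
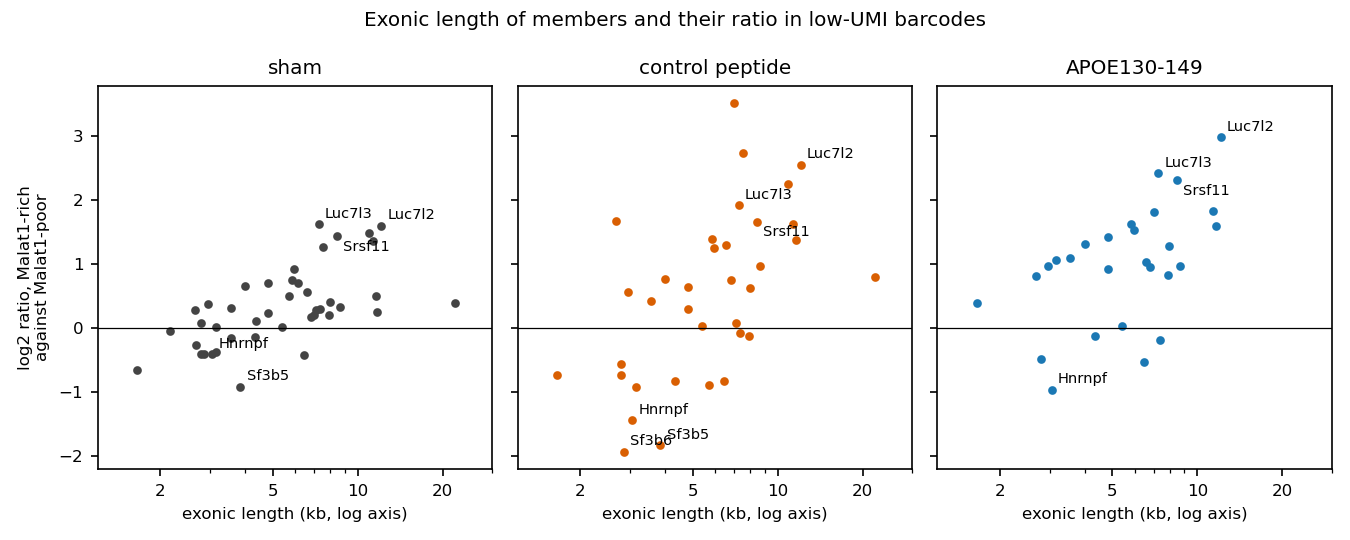
Log2 ratio of the Malat1-rich to the Malat1-poor group of barcodes under 2000 UMIs against summed exonic length in kilobases (log axis), with a point per member and a panel per library. The points rise from left to right, with Spearman's rho of 0.64, 0.59 and 0.53 in the sham, control-peptide and APOE130-149 libraries.

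The groups differed in other ways too. Neutrophil markers summed to 8540, 26126 and 67118 CPM in the poor group and to 7061, 2591 and 1019 CPM in the rich, and all 10 were detected in the poor group of every library. In the rich group of the APOE130-149 library 7 of the 10 were detected, with Cxcr2, Mmp8 and Hdc at 0. Choroid plexus markers summed to 6.82, 17391 and 3197 CPM in the poor group and 15.6, 224 and 176 CPM in the rich. Erythroid markers summed to 3.41, 2558 and 10386 CPM in the poor group and 2.23, 67.7 and 633 CPM in the rich. In the sham library B lineage markers summed to 1324 CPM in the poor and 602 CPM in the rich group. Mitochondrial transcripts made up 2.24%, 6.97% and 6.68% of UMIs in the poor group and 6.59%, 8.82% and 7.63% in the rich. Gated neutrophils were 12.9%, 21.3% and 29.9% of the poor group and 8.61%, 5.47% and 2.08% of the rich. Barcodes passing the microglia gate made up 65.3%, 26.7% and 30.9% of the poor group and 65.2%, 68.2% and 66.7% of the rich. Transcripts of ribosomal proteins were 17.3%, 15.2% and 12% of UMIs in the poor group and 11.9%, 4.89% and 4.49% in the rich. The part of these differences in the members' ratios was not tested.

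Restricting the low-UMI barcodes to those with the microglia gate, and forming the 3 groups anew, left 320, 95 and 52 barcodes in the poor group. The summed members were then 1.31-fold (1.23 to 1.39), 1.31-fold (1.19 to 1.45) and 1.53-fold (1.35 to 1.74) higher in the rich group, so the ratio shrank in both NMOSD libraries and not in the sham library. Of 22 members compared in all 3 libraries, 8 (36.4%) were at least 1.5-fold higher, against 24.8% of 992 genes, and 1, Hnrnpf, was lower, against 8.17%. Luc7l2 was 3.32-, 3.25- and 2.83-fold higher, a narrower spread over libraries than without the gate. Luc7l3 was 2.72-, 1.76- and 1.88-fold higher.

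The same split among microglia of 5000 to 15000 UMIs gave smaller ratios in the same direction. The summed members were 1.24-fold (1.23 to 1.26), 1.21-fold (1.19 to 1.22) and 1.2-fold (1.17 to 1.23) higher in the Malat1-rich group. In all 3 libraries 14 of 42 members (33.3%) had intervals above 1, against 16.1% of 8214 genes, and 0 below, against 6.94%. No member was 1.5-fold higher or lower in all 3, against 2.26% and 0.877% of genes. Hnrnpa2b1 was 1.54-, 1.55- and 1.49-fold higher, Hnrnph1 1.54-, 1.5- and 1.46-fold and Luc7l2 1.53-, 1.41- and 1.59-fold. The members' medians of 0.28, 0.25 and 0.17 stood beside 0.17, 0.16 and 0.17 for all genes.

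The genes whose levels followed the members' summed level most closely over the 12 combinations of 4 cell types and 3 libraries were Hspe1 (Pearson's r = 0.93), Psmd7, Cct3, Krtcap2 and March5 (0.92), out of 3141 genes at 50 CPM or more. The 12 levels share libraries and differ in depth, so the coefficients are given as a description.

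Some levels carry an uncertainty of assignment. Whether counting used the strand of the reads is not given in the sources used here, so reads of Hnrnpu and Cox20, Hnrnph3 and Rufy2, Srsf1 and Gm11508, Srsf2 and Mettl23 or Mfsd11, Sf3b3 and Cog4, Hnrnpk and Rmi1, Hnrnpab and Phykpl and Sf3a2 and Plekhj1, which overlap on opposite strands, cannot be told apart. The same holds for Sf3b4, Srsf4, Hnrnpr, Hnrnpd, Hnrnpl, Luc7l and Sf3b2, each of which overlaps a predicted gene, while Hnrnpm overlaps March2 on its own strand. Luc7l3, Luc7l2, Srsf7, Hnrnpa3, Sf3b5 and Sf3b6 overlap no other gene of the matrices.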

How the data were processed

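Droplet-based single-cell RNA sequencing was done on 3 libraries. The authors deposited raw UMI counts (whole numbers, not normalized) for each barcode, judged from the headers and the values. Cell Ranger 5.0.1, Seurat 4.3.0 and the mm10 build are named per the submitters' processing notes, and the matrix headers name cellranger 7.0.1. Whether intronic or antisense reads were counted is not given in the sources used here, and intronic counting would raise long genes.

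Counts were summed per library and class. A class needed 3 or more distinct markers of its type and more marker UMIs than any other type, and microglia fewer than 3 markers of each other type. No doublet caller was run. Genes were compared at 10 CPM or more in either class, 20 UMIs in both together and a UMI in each. Ratios carry exact (Clopper-Pearson) conditional intervals. Every member could be named. Full values were planned for the 8 furthest from 1 in control peptide against sham and for each family's highest and lowest. They were also planned for the 4 highest and 4 lowest of other contrasts and the ends of each other splicing list. The text prints only a part of these and also gives values of members outside them. Python 3.11.15, numpy 2.4.6, scipy 1.17.1 and pandas 2.3.3 were used, and the scripts were tested on simulated data. The alternative settings are in the closing section. The members, lists and gates were chosen with earlier results of these data known. GENCODE vM21 matched 32158 of 32285 identifiers.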

Additional observations from a re-analysis of the deposited data

Results flagged for a closer look

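Members whose difference from microglia of the same library went in opposite directions in 2 libraries, with both intervals excluding 1, were Hnrnpa2b1, Luc7l3 and Srsf7 in monocytes and Hnrnpa3 and Srsf1 in neutrophils; with 1 library per group, none of these differences between libraries was tested. In monocytes Hnrnpa2b1 was 1.12-fold higher with control peptide and 1.17-fold lower both in the sham and in the APOE130-149 library. Luc7l3 in monocytes was 1.37-fold higher with APOE130-149 and 1.36-fold lower in sham. Srsf7 in monocytes was 1.28-fold higher with control peptide and 1.34-fold lower in sham. For Luc7l3 and Srsf7 the microglial level against which the monocytes are set was itself highest in sham. Hnrnpa3 in neutrophils was 1.13-fold higher with control peptide, 1.45-fold lower in sham and 1.14-fold lower with APOE130-149. Its control-peptide ratio turned to 0.716 in neutrophils with fewer than 3 microglial markers and to 0.938 with every cell weighted alike. Srsf1 in neutrophils was 1.23-fold higher with APOE130-149 and 1.80-fold lower in sham. Its APOE130-149 ratio was 0.911 with every cell weighted alike and 1.71 in neutrophils with fewer than 3 microglial markers. The sham neutrophils had the fewest UMIs per cell, and the part of depth was not tested.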

How the results depend on the processing

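No paired analysis was possible because each group is 1 library. Over all alternatives, 952 ratios of named members stayed within their counting interval and 138 moved outside it. Another 14, all with an interval that excluded 1, changed direction. Ratios whose interval included 1 were not counted as changing direction, even where they crossed 1. The members' median changed direction in 3 cases under a like rule. The cause was not tested. In microglia, the number of members 1.5-fold apart was 0 for control peptide against sham and 1 for APOE130-149 against sham under the trimmed mean of M values, the median of ratios and with every cell weighted alike. The ratio of Luc7l3 stayed below 1 under each of the 12 alternatives, between 0.611 and 0.711 for control peptide and between 0.532 and 0.638 for APOE130-149 against sham, and that of Srsf7 between 0.724 and 0.819 and between 0.641 and 0.697. Under the median of ratios the members' median for control peptide against sham was 0.045. The Luc7l2 ratio of control peptide to sham was 1.02, 1.03 and 1.13 under those 3 settings. With every cell weighted alike, APOE130-149 against sham gave a median of 0.0066 and ratios of 1.04 for Hnrnpul1, 1.02 for Luc7l2 and 1.07 for Sf3b2.

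The counts and medians in this paragraph cover members alone, without the values over all genes in each library. They show how the settings act and describe no trait of the members. Leaving out cells with 3 or more microglial markers changed the border-associated macrophages and neutrophils most: 2, 2 and 4 macrophages remained. Their count 1.5-fold apart was 17 in sham, with ratios of 0.765 for Hnrnpf and 1.29 for Hnrnpk, and the medians were 0.79 with control peptide and 0.63 with APOE130-149. Neutrophils then gave medians of -0.83 and -0.60 and counts of 25 and 22 in the same libraries, with ratios of 0.716 for Hnrnpa3 (control peptide) and 0.969 for Sf3b5 (APOE130-149). In these neutrophils 41.4% of 6221 genes were at least 1.5-fold lower in all 3 libraries. With every cell weighted alike, the count was 14 for sham macrophages. Neutrophils gave medians of -0.44 and -0.47 and counts of 16 and 19 with control peptide and APOE130-149, with ratios of 0.938 for Hnrnpa3, 0.965 for Hnrnpul2, 0.998 for Sf3b2 (control peptide) and 0.911 for Srsf1 (APOE130-149). Under the median of ratios the neutrophil medians were 0.035 in sham, with a count of 9, 0.033 with control peptide and -0.011 with APOE130-149. For cycling microglia the count was 14 with APOE130-149 in cells of 5000 to 15000 UMIs, and 14 in sham and 12 with APOE130-149 with every cell weighted alike. For low-UMI barcodes of the sham library the count was 8 when split at the median Malat1 share and 27 between at least 2% and at most 0.5% Malat1. The fixed limits, a microglia gate on marker UMIs alone, the gated low-UMI barcodes and the split of full-depth microglia were chosen after seeing the data. Depth limits the values in border-associated macrophages and in strictly gated neutrophils and monocytes, where single members rest on a few UMIs.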
